A study of Mus musculus with 12 samples.

Results

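CD8αα intraepithelial lymphocytes (IEL) that were recovered from hosts of CD4 T cells were set against CD8αβ IEL that were recovered from hosts of CD8αβ T cells, which makes 6 of the 12 RNA-seq libraries of the series, 3 in each group. The libraries were chosen by their sample titles and not by any measured value. All hosts were Rag2–/– mice, and all donor T cells came from the lymph nodes of animals that the labels call Themis WT. A host received T cells in a single intravenous dose, either CD4+ T cells or CD8αβ+ T cells, and its small intestine was taken 1 week later. The cells compared were sorted as TCRβ CD8αα+ in the hosts of CD4 cells (CD8αα from CD4) and as TCRβ CD8αβ+ in the hosts of CD8αβ cells (CD8αβ IEL). The other 6 libraries, CD4 IEL and CD8αα IEL from hosts of CD8αβ cells (CD8αα from CD8αβ), entered the model and are given here only as levels beside the comparison. Transferred cell, host and sorted phenotype all differ between the compared groups and cannot be told apart. The labels give no age, and whether each replicate was a different animal is not stated, so the p-values reflect the variation among these libraries, which may be technical.

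IEL lie between the epithelial cells of the gut, where they kill infected or damaged cells and help to keep the barrier. A conventional CD8 T cell carries a CD8αβ coreceptor that binds MHC class I beside its T cell receptor and passes the signal through the CD3 chains. The CD8αα homodimer is a mark of gut residence and binds the thymus leukaemia antigen on epithelium. Peripheral CD4 T cells can gain CD8αα and granule proteins in the gut while they lose the CD4 helper factor ThPOK (Zbtb7b) and gain Runx3. A Rag2-deficient host makes no T or B cells of its own but keeps its innate lymphoid and myeloid cells. The comparison asked how near CD8αα cells found after CD4 transfer lie to CD8αβ IEL in genes of killing, in surface receptors and in transcription factors.

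Coreceptor transcripts, on whose proteins the cells were sorted, followed the labels. Cd8b1, the CD8β chain, stood at 15.4, 16.4 and 20.6 CPM (read counts scaled to a common library total, with TMM factors) in the 3 CD8αα from CD4 libraries and at 1166, 1086 and 1118 CPM in the CD8αβ IEL libraries. Cd8a, the CD8α chain, was at 2430, 2690 and 2824 CPM against 2172, 2222 and 2083 CPM. Cd4 was at 2.56, 2.98 and 3.27 CPM against 11.6, 42.2 and 15.8 CPM, and had a mean of 1640 CPM in CD4 IEL. Low Cd4 and Cd8b1 with high Cd8a is what the CD8αα label asks for, and in each of these genes the groups did not overlap.

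Markers of T cells did not follow the label in the same way. Of 12 T cell markers, 10 were lower and 1 was higher in CD8αα from CD4, beside 20.4% and 19.2% of all genes tested. Their summed level was 2043, 2260 and 2579 CPM against 6818, 5704 and 5872 CPM. Most of the CD8αα from CD4 sum was Cd3g, the 1 higher marker, at 1900, 2131 and 2347 CPM against 932, 1001 and 901 CPM. The sum therefore understates how low the other markers were. Themis, a T cell adaptor that the labels give as wild-type in the donors, was at 7.85, 7.21 and 6.86 CPM in CD8αα from CD4 against 243, 176 and 242 CPM in CD8αβ IEL. Of 12 markers of NK cells and group 1 innate lymphoid cells, 9 were higher and 2 were lower, with sums of 41806 to 57688 CPM against 5062 to 12752 CPM. Most of that sum was Gzma. Of the defining markers, Ncr1 was low but among the 9 higher genes, at 4.27, 0 and 2.34 CPM against 0 reads in CD8αβ IEL (at least 14.4-fold higher), and Eomes was lower, at 0 to 0.468 CPM in CD8αα from CD4. Ncr1 could be tested only through groups where it was high, so its place in that count follows in part from the filter on low counts. In bulk RNA, fewer cells of a type and less RNA per cell cannot be told apart, and the part of these markers in the differences below was not tested.

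Sex-linked transcripts divided the CD8αα from CD4 libraries. Xist, the RNA that silences an X chromosome in female cells, was at 644 and 485 CPM in replicates 1 and 2 and at 1.25 CPM in replicate 3, and 4 Y-linked genes summed to 0.341, 1.03 and 363 CPM in the same order. CD8αβ IEL held 0.528 to 13.0 CPM of Xist and 233 to 374 CPM of the Y-linked genes in every library. CD4 IEL held 0 to 36.4 CPM of Xist and 373 to 449 CPM of the Y-linked genes. In CD8αα from CD8αβ, Xist was at 382 and 373 CPM in replicates 1 and 3 and at 0.85 CPM in replicate 2. High Xist was thus seen in CD8αα libraries only, for a reason that was not tested. The sex of the cells is therefore partly confounded with the group. Counts are given below also without the 2 Xist-holding libraries of CD8αα from CD4. Those fits leave out the Xist-holding CD8αα from CD8αβ libraries as well. Totals were 5618917 to 8874372 counts in CD8αα from CD4 and 6098526 to 9441851 in CD8αβ IEL, and a gene at 0 in a library can lie at up to 0.318 to 0.534 CPM (3 counts, counting error only). The libraries correlated at r = 0.956 to 0.961 and 0.926 to 0.946 within the groups and at 0.780 to 0.823 between them (log2 CPM across genes, which are not independent replicates). Epithelial markers summed to 629 to 787 CPM in CD8αα from CD4 and to 366, 1129 and 462 CPM in CD8αβ IEL, and macrophage and dendritic cell markers to 1070 to 1274 CPM and 658, 1259 and 569 CPM. CD8αβ IEL replicate 2 was the highest of its group in both. The B cell genes Pax5 and Ebf1 had 0 reads in all 6 libraries.

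Across all 12622 genes tested, 5006 were called, which is 39.7%. Of these, 2429 (19.2%) were higher in CD8αα from CD4 and 2577 (20.4%) were lower. Called means an adjusted p under 0.05 in edgeR's quasi-likelihood test, and 50.6% of genes had libraries that did not overlap between the groups. In genes picked from a list for large differences, a lack of overlap is therefore no added support. A further 31.2% were not called and had a 95% interval of the difference that lay within 2-fold in both directions. The median log2 difference (CD8αα from CD4 minus CD8αβ IEL) over all genes tested was 0.006. Against that background, 28 of 39 cytotoxic genes tested (71.8%), 112 of 132 receptor genes (84.8%) and 55 of 85 transcription factor genes (64.7%) were called. Receptors and transcription factors leaned towards lower levels, with median log2 differences of -1.28 and -0.46, while the cytotoxic genes had a median of 0.18.

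**Figure D1:**
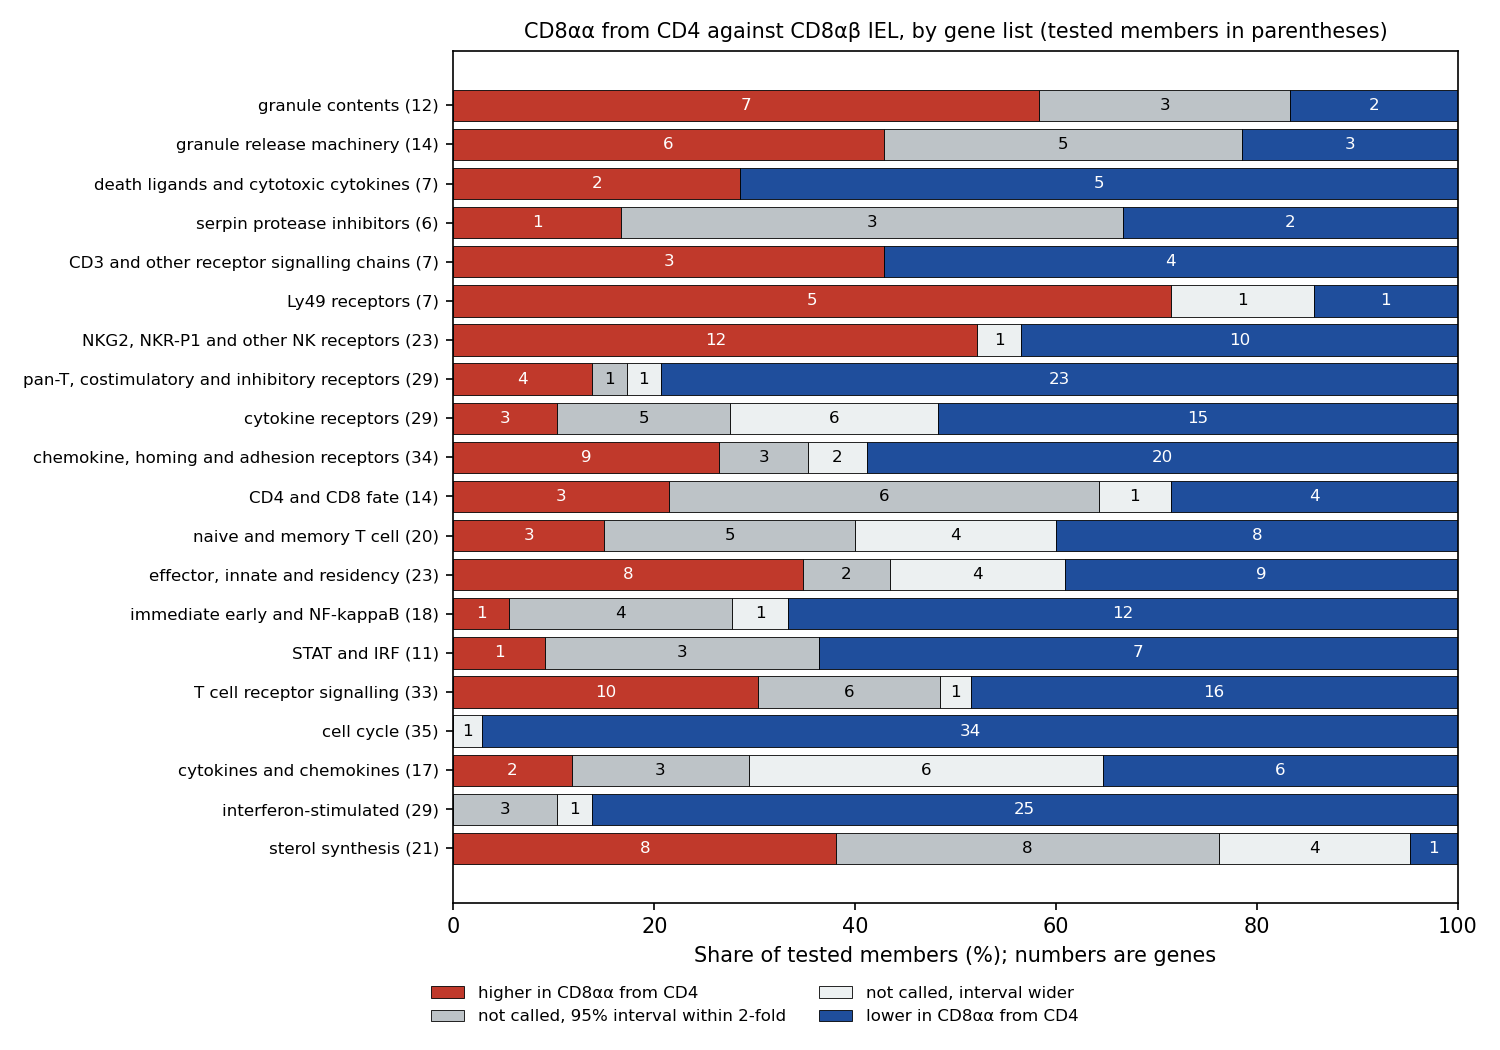
Share of the tested genes of each list (percent, with the number of genes in each bar segment) that were higher in CD8αα from CD4 than in CD8αβ IEL, lower, not called with a 95% interval within 2-fold, or not called with a wider interval. Ly49 receptors and granule contents hold more higher than lower genes, and the cell cycle and interferon-stimulated lists hold 0 higher genes.

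The granzymes that CD8αα from CD4 held at higher levels were accompanied by perforin, but not by every granule protease. Of 12 tested granule content genes, 7 were higher, 2 were lower and 3 differed by less than 2-fold. In all, 75% were called, beside 39.7% of all genes tested, and their median log2 difference was 0.91. Gzma, the tryptase granzyme A, was at 33523, 45097 and 47159 CPM in CD8αα from CD4 and at 3836, 10867 and 5059 CPM in CD8αβ IEL. Every CD8αα library lay above every CD8αβ library, at a log2 difference of 2.67 ± 0.38 (SE, n = 3 and 3) with an adjusted p of 0.000111. Gzma alone took 3.50 to 4.70% of all counts in CD8αα from CD4 and 0.363 to 1.09% in CD8αβ IEL.

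Gzmb, which encodes granzyme B and cleaves caspase substrates in the target cell, was at 12099, 20054 and 15413 CPM against 1747, 3707 and 2955 CPM. The groups were again apart, with a 5.66-fold higher mean level (log2 difference 2.50 ± 0.33, adjusted p = 5.28e-05). Gzmc, a granzyme of strongly activated killer cells, was at 46.7, 81.5 and 124 CPM against 1.39, 2.11 and 0.987 CPM, a log2 difference of 5.75 ± 0.44. Prf1, the pore-forming protein that lets granzymes into the target, was at 764, 1172 and 873 CPM against 193, 163 and 216 CPM (2.30 ± 0.22). Ctsc, the protease that activates granzymes, and Cst7, an inhibitor of that step, rose by log2 1.02 ± 0.11 and 1.11 ± 0.15.

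Granzyme K went the other way. Gzmk, a tryptase typical of early memory CD8 T cells, was at 51.7, 68.0 and 73.3 CPM in CD8αα from CD4 and at 414, 557 and 448 CPM in CD8αβ IEL, which is 7.35-fold lower (log2 difference -2.88 ± 0.22, adjusted p = 5.16e-07). No library of one group reached the range of the other. Gzmm was also lower, at 1.09 to 3.58 CPM against 4.54 to 9.87 CPM, a call lost without CD8αα from CD4 replicate 2 (adjusted p = 0.0846) or 3 (0.0823), CD8αβ IEL replicate 3 (0.0819) or the Xist-holding libraries (0.122). Gzma and Gzmk lie on the minus strand of the same stretch of chromosome 13, and their promoters are shown because these related proteases moved in opposite directions. The windows of 300 bases around the RefSeq starts (GRCm38.p6) are chr13:113100932-113101231 for Gzma and chr13:113180916-113181215 for Gzmk. As counted here, Gzmk spans 113171608 to 113225908 on the minus strand, so its window lies inside that span and not at its start. Capitals mark matches to a RUNX motif (TGTGGT), a TCF and LEF motif (CTTTGA), a T-box motif (TCACAC) or an ETS motif (AGGAAG) on either strand.
Gzma: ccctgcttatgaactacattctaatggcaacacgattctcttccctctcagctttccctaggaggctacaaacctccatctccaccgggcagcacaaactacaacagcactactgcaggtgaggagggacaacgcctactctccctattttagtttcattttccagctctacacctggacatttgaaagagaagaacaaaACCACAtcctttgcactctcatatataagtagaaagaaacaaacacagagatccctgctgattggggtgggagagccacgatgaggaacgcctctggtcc
Gzmk: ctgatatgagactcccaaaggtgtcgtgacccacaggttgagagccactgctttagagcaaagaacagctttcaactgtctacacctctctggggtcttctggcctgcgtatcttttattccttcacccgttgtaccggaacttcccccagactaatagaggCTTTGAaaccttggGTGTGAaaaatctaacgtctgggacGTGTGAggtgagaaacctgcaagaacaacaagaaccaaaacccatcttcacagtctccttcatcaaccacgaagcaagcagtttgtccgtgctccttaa
The Gzma window held 1 RUNX match and no other, and the Gzmk window held 1 TCF and LEF match and 2 T-box matches. Over 32851 promoter windows of the same length, 16.8% held the RUNX letters, 16% the TCF and LEF letters, 14.5% the T-box letters and 35.4% the ETS letters. A match is a description of these letters and does not show binding.

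Several proteins that carry or tether the granule load had like levels in the groups. Nkg7, a granule membrane protein, was at 1789, 2063 and 2466 CPM against 2481, 2870 and 2354 CPM, with a 95% interval of the log2 difference of -0.58 to 0.01, and was called lower without CD8αα from CD4 replicate 3 (-0.41, adjusted p = 0.0404). Ctsw, the cathepsin of killer lymphocytes, was at 1442, 1195 and 1418 CPM against 1506, 1276 and 1401 CPM (interval -0.31 to 0.22). In both genes the libraries overlapped and the difference was bounded within 2-fold. Srgn, the proteoglycan core of granules, had a log2 difference of 0.30 with an interval of 0.01 to 0.58.

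Genes of granule transport and release were mixed. Of 14 tested, 6 were higher, 3 were lower (64.3% called, beside 39.7% of all genes tested) and 5 differed by less than 2-fold. Sytl2, a Rab27 effector that docks granules at the membrane, was at 226, 175 and 159 CPM in CD8αα from CD4 and at 57.4, 36.6 and 52.8 CPM in CD8αβ IEL, with every CD8αα library the higher (log2 difference 1.93 ± 0.20, adjusted p = 7.38e-06). Its relative Sytl3 rose by log2 1.18 ± 0.17 and the endosomal syntaxin Stx7 by 1.03 ± 0.25. Lyst, the regulator of lysosome size that is mutated in beige mice, was lower, at 7.51, 15.3 and 7.64 CPM against 25.4, 34.4 and 31.3 CPM (-1.57 ± 0.42, adjusted p = 0.00977). The release SNARE Vamp8 was lower by a log2 difference of -0.75 ± 0.16, while Unc13d (0.18), which primes granules for fusion, and the kinesin Kif5b (-0.30) stayed within 2-fold. Without the Xist-holding libraries, neither Vamp8 (log2 difference -0.44, adjusted p = 0.285) nor Stx7 (adjusted p = 0.089) was called.

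All 7 tested death ligands and cytotoxic cytokines were called, beside 39.7% of all genes tested, and they divided by kind. The death-receptor ligands Fasl and Tnfsf10 (TRAIL) were higher in CD8αα from CD4. Fasl was at 811, 719 and 683 CPM against 393, 328 and 354 CPM (log2 difference 1.04 ± 0.13), and Tnfsf10 was at 364, 397 and 321 CPM against 95.5, 72.3 and 124 CPM (1.90 ± 0.23). The 5 others were lower: Tnf, Lta, Ltb, Ifng and Tnfsf14. Tnf, the inflammatory cytokine, was at 5.97, 4.12 and 4.05 CPM in CD8αα from CD4 and at 150, 119 and 143 CPM in CD8αβ IEL, which is 29.3-fold lower (log2 difference -4.87 ± 0.23, adjusted p = 1.31e-08). Ifng, the macrophage-activating interferon, was at 23.4, 32.1 and 65.3 CPM against 385, 352 and 324 CPM (-3.14 ± 0.30). Tnfsf14 (LIGHT) differed by -4.12 ± 0.30 and Lta (lymphotoxin α) by -3.47 ± 0.58. In none of the 7 genes did the libraries of the groups overlap, beside 50.6% of all genes tested that did not overlap.

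Of 6 tested serpins, inhibitors that restrain granule proteases, 1 was higher, 2 were lower and 3 differed by less than 2-fold. Thus 50% were called, beside 39.7% of all genes tested, a share near the background. Serpinb9, the inhibitor that shields killer cells from their own granzyme B, was at 189, 250 and 206 CPM against 155, 134 and 175 CPM (log2 difference 0.47 ± 0.14, adjusted p = 0.0144). That call was lost when CD8αα from CD4 replicate 2 (adjusted p = 0.0806) or CD8αβ IEL replicate 2 (0.0571) was left out. Serpina3f was lower, at 6.87 to 8.58 CPM against 20.6 to 31.9 CPM, and Serpina3g, an inhibitor of cathepsins, had a log2 difference of 0.00 with an interval of -0.38 to 0.39.

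**Figure D2:**
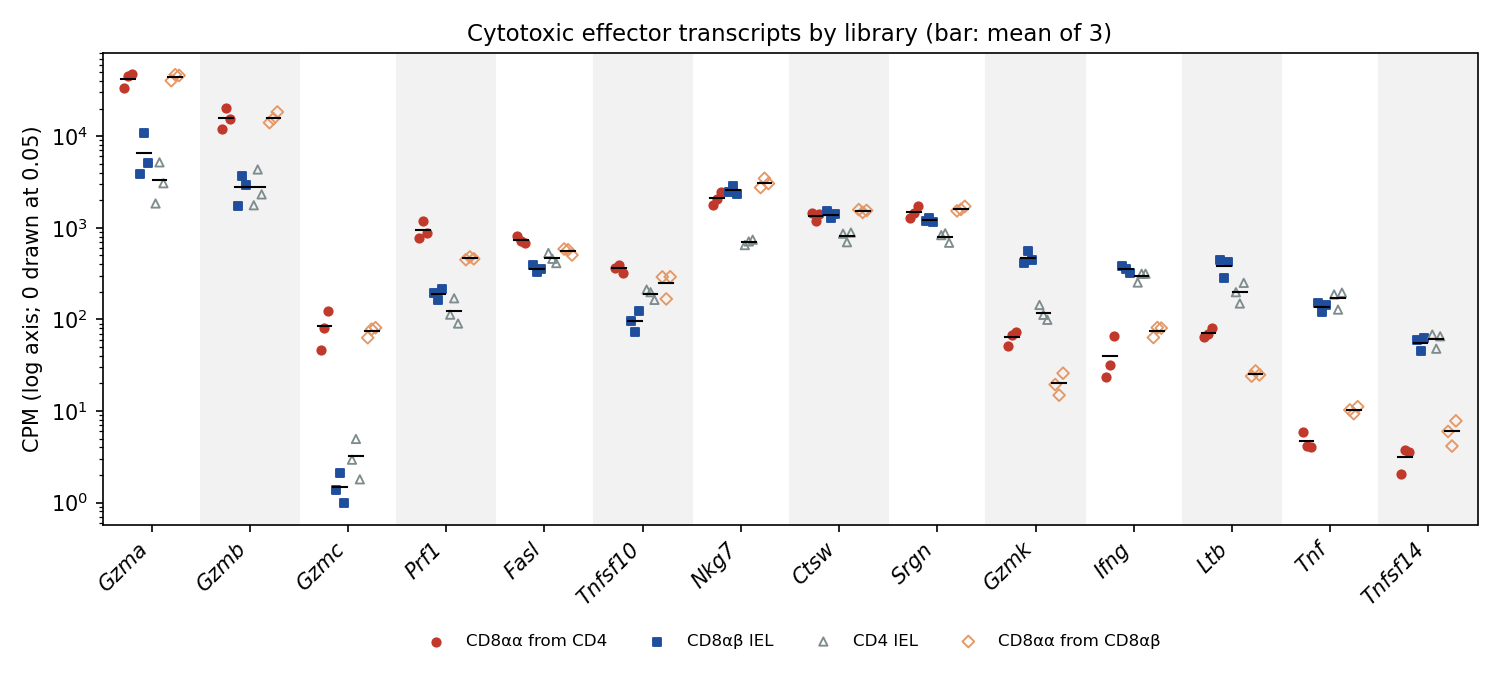
Level of cytotoxic genes in CPM on a log axis in each library, with a bar at the mean of 3 libraries and a value of 0 drawn at 0.05; filled points are the compared groups and open points are CD4 IEL and CD8αα from CD8αβ. Gzma, Gzmb, Gzmc and Prf1 lie higher in CD8αα from CD4 than in CD8αβ IEL, and Gzmk, Tnf and Ifng lie lower.

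Without CD8αβ IEL replicate 1, 26 of the 28 cytotoxic calls held with the same direction. Without the 2 Xist-holding libraries, which leaves 1 CD8αα from CD4 library that is assumed to vary like the other groups, 19 of 28 held.

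The chains that pass on antigen receptor signals did not move together. Of 7 tested signalling chain genes, 3 were higher and 4 were lower in CD8αα from CD4 (100% called, beside 39.7% of all genes tested). Cd3d was at 11.6, 14.2 and 28.2 CPM against 726, 749 and 610 CPM in CD8αβ IEL (log2 difference -5.27 ± 0.28, adjusted p = 2.17e-08). Cd3e was at 8.70, 3.21 and 12.8 CPM against 574, 403 and 503 CPM (-5.94 ± 0.38), and Cd247, the CD3ζ chain, at 24.2, 13.3 and 20.6 CPM against 415, 380 and 427 CPM (-4.40 ± 0.22). Thus 3 of the 4 CD3 chain genes lay 21.2-fold to 61.2-fold lower, with no overlap. Cd3g was the exception: it was at 1900, 2131 and 2347 CPM in CD8αα from CD4 and at 932, 1001 and 901 CPM in CD8αβ IEL, which is 2.25-fold higher (1.17 ± 0.11, adjusted p = 3.22e-06).

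Cd3d and Cd3g are neighbours on chromosome 9 whose annotated starts face away from each other 1362 bases apart. Their promoter windows, chr9:44980382-44980681 on the minus strand for Cd3g and chr9:44981536-44981835 on the plus strand for Cd3d (RefSeq, GRCm38.p6), are shown because these neighbours, which start close together, moved in opposite directions, and capitals mark the same 4 motifs as above.
Cd3g: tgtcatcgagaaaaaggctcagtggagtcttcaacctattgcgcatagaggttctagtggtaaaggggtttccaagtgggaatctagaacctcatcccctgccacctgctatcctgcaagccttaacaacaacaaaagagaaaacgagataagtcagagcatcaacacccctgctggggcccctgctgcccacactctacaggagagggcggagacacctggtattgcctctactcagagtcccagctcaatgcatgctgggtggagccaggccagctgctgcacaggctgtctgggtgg
Cd3d: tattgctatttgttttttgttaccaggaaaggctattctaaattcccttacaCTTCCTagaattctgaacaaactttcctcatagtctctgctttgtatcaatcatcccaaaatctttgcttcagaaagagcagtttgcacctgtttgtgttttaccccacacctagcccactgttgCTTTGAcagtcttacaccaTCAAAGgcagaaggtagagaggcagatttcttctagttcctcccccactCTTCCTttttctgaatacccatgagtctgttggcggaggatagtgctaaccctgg
The Cd3g window held none of the motifs, and the Cd3d window held 2 TCF and LEF matches and 2 ETS matches. How the counting treated strand is not given in the sources used here, so reads from the opposite strand could be counted within either gene. As annotated, the 2 genes do not overlap.

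Adaptors of Fc and NK receptors were the chains that rose most. Fcer1g (ENSMUSG00000058715, chromosome 1, 171229572 to 171234365 in mm10), the Fc receptor γ chain, which can stand in for CD3ζ in IEL, was at 1028, 1075 and 1227 CPM in CD8αα from CD4 and at 18.4, 58.3 and 17.8 CPM in CD8αβ IEL (log2 difference 5.12 ± 0.52, adjusted p = 5.36e-06). Tyrobp, the adaptor DAP12, was at 1426, 1667 and 1871 CPM against 33.7, 165 and 30.1 CPM (4.43 ± 0.60). CD8αβ IEL replicate 2 was the highest of its group in both genes, yet far under the lowest CD8αα library. Hcst, the adaptor DAP10 that pairs with NKG2D, went the other way, at 20.5, 24.4 and 22.9 CPM against 80.5, 123 and 60.2 CPM (-1.96 ± 0.37).

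Among coreceptors, Cd8b1 was 64.4-fold lower in CD8αα from CD4, with a log2 difference of -6.01 ± 0.21, and Cd4 differed by -2.99 ± 0.47. The difference in Cd8a was small, at log2 0.29 ± 0.10 with an adjusted p of 0.0371. It was not called without CD8αβ IEL replicate 1 (adjusted p = 0.0568) or in a fit of the 6 compared libraries alone (0.0819). These are the proteins of the sort, so their differences describe the gate.

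Ly49 receptors, which read MHC class I on other cells and mostly inhibit NK cells, were higher in CD8αα from CD4 in 5 of the 7 members tested. Over all genes tested, 19.2% were higher. The median log2 difference of the Ly49 members was 5.99, or 5.12 with genes at 0 in a group set to their bound. Klra7 (Ly49G) was at 71.7, 52.0 and 117 CPM against 0.139, 1.27 and 0 CPM (log2 difference 7.16 ± 0.78, adjusted p = 9.94e-06). Klra5 (Ly49E) was at 61.9, 53.9 and 126 CPM against 0.831, 1.79 and 4.61 CPM (5.12 ± 0.66). CD8αα from CD4 replicate 3 was the highest in both. Klra3 (Ly49C) had 290 reads in CD8αα from CD4 and 0 in CD8αβ IEL, which makes it at least 105-fold higher against 3 counts over the group. Klra17 was lower (-2.19 ± 0.81, adjusted p = 0.0461) and Klra6 was undecided. The Klra17 call was lost with library totals alone (adjusted p = 0.0502), with a replicate block (0.0867), without any 1 of the CD8αα from CD4 libraries (0.0982 to 0.125), without CD8αβ IEL replicate 2 (0.325), and without the Xist-holding libraries (0.421) or with a term for them (0.234). Klra6 was called higher without CD8αβ IEL replicate 2 (adjusted p = 0.0198). Of the 13 listed genes, 2 were not matched in the table and 4 did not pass the filter on low counts. That filter needs enough counts in only 1 group, and Klra3 and Klra8 had 0 reads in CD8αβ IEL. Such genes could be tested only through groups where they were high. The count and median over tested members thus follow in part from the filter. Reads of these near-identical genes can be split or lost by counting, so the level of a single Klra gene is uncertain.

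The other NK receptors divided by family. Of 23 tested, 12 were higher and 10 were lower (95.7% called, beside 39.7% of all genes tested), with a median log2 difference of 0.98. The NKR-P1 lectins rose together: all 5 tested Klrb1 genes were higher, a grouping made after their values were seen. Klrb1b and Ncr1 had 0 reads in CD8αβ IEL, so they could be tested only through groups where they were high. The counts of higher genes and the median thus follow in part from the filter on low counts. Klrb1a was at 137, 119 and 165 CPM against 0.693, 2.74 and 2.63 CPM (6.09 ± 0.34, adjusted p = 4.02e-08), and Klrb1c, which carries the NK1.1 epitope, at 206, 163 and 244 CPM against 9.42, 7.07 and 7.57 CPM (4.67 ± 0.25). Klri1 and Klri2, lectin receptors that pair with Klre1, differed by log2 7.31 ± 0.93 and 6.52 ± 0.96, and Klre1 itself was undecided (31.5 to 67.2 CPM against 4.99, 70.3 and 12.2 CPM). Fcgr3, the low-affinity IgG receptor, was at 284, 283 and 311 CPM against 4.71, 8.55 and 6.91 CPM (5.43 ± 0.49), and the SLAM family receptor Cd244 (2B4) at 1196, 1368 and 1202 CPM against 113, 219 and 141 CPM (2.99 ± 0.28).

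Klrc1, Klrc2, Klrk1, Cd226 and Crtam, grouped here after their values were seen, were lower in the same cells, while Cd96, another receptor of nectin-family ligands, was higher (log2 difference 0.98 ± 0.11). Klrc1 (NKG2A) was at 25.9, 23.4 and 35.5 CPM in CD8αα from CD4 and at 219, 347 and 153 CPM in CD8αβ IEL, Klrc2 (NKG2C) at 3.92, 4.46 and 3.90 CPM against 40.7, 15.9 and 61.7 CPM, and the log2 differences were -3.09 ± 0.32 and -3.26 ± 0.52. Klrk1 (NKG2D), which sees stress ligands on epithelium, was at 13.8, 23.7 and 15.4 CPM against 62.9, 164 and 66.0 CPM (-2.46 ± 0.49). Their partner chain Klrd1 (CD94) did not follow and was higher, at 315, 314 and 496 CPM against 68.9, 234 and 108 CPM (1.45 ± 0.39, adjusted p = 0.00919). Cd226 (DNAM-1), the activating receptor for nectin-family ligands, was at 26.1, 22.8 and 30.9 CPM against 276, 192 and 370 CPM (-3.39 ± 0.23), and Crtam differed by -3.31 ± 0.41. No library of CD8αα from CD4 lay in the range of CD8αβ IEL for Klrc1, Klrc2, Klrk1, Klrd1, Cd226 or Crtam. Without the Xist-holding libraries, Klrk1 (adjusted p = 0.0721) and Klrd1 (0.0555) were not called.

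Pan-T, costimulatory and inhibitory receptors were mostly lower in CD8αα from CD4: 23 of 29 were lower and 4 were higher. In all, 93.1% were called, beside 39.7% of all genes tested, and their median log2 difference was -2.49. Pdcd1 (PD-1), the checkpoint receptor, was at 0.171, 0.114 and 1.72 CPM against 274, 409 and 446 CPM (-9.19 ± 0.51, adjusted p = 3.17e-08). Cd2, an adhesion receptor of T cells, was at 2.56, 0.114 and 0.936 CPM against 292, 273 and 302 CPM (-8.04 ± 0.54). The costimulatory receptor Cd28 was at 1.36, 0.572 and 3.43 CPM against 526, 301 and 488 CPM, and Slamf6 had 4 reads over the 3 CD8αα libraries against 1552. All 4 genes were thus close to 0 in CD8αα from CD4. Those that were higher were Cd7, Lag3, Cd200r1 and Cd38, of which Cd38 was not called without the Xist-holding libraries (adjusted p = 0.145). Cd7, a surface protein of T and NK cells, was at 5218, 5736 and 6759 CPM against 1021, 1353 and 947 CPM (2.41 ± 0.23). Lag3, an inhibitory receptor for MHC class II, was at 1222, 1595 and 1209 CPM against 252, 550 and 374 CPM (1.77 ± 0.28), and Cd200r1 differed by 1.16 ± 0.21. The pan-leukocyte phosphatase Ptprc (CD45) stayed within 2-fold, at 2222 to 2233 CPM against 1233 to 2212 CPM.

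Cytokine receptors were lower in 15 of 29 members and higher in 3 (62.1% called, beside 39.7% of all genes tested). Those 3 were Il2rb, Il12rb2 and Tgfbr1. Il2rb, the β chain shared by IL-2 and IL-15 receptors, was at 3481, 3799 and 3349 CPM against 732, 888 and 761 CPM (2.16 ± 0.11, adjusted p = 2.00e-08). Il12rb2, the inducible IL-12 receptor chain, was at 381, 308 and 335 CPM against 29.8, 26.2 and 16.6 CPM (3.81 ± 0.25), and had a mean of 739 CPM in CD4 IEL and 376 CPM in CD8αα from CD8αβ. Tgfbr1, the type I TGF-β receptor, was at 156, 133 and 117 CPM against 26.3, 26.7 and 22.0 CPM (2.43 ± 0.25). Il18r1, the IL-18 receptor chain, had 0 reads in CD8αα from CD4 and 18.1 to 46.0 CPM in CD8αβ IEL, which is at least 198-fold lower. Il10ra was at 11.6, 13.5 and 7.95 CPM against 213, 327 and 369 CPM (-4.77 ± 0.40), and Il7r, the receptor of naive and memory survival, at 9.21, 8.01 and 18.7 CPM against 80.6, 45.7 and 68.1 CPM (-2.44 ± 0.31). Tgfbr2, Il12rb1, Il15ra, Il27ra and Kit differed by less than 2-fold, though Il12rb1 was called higher without CD8αβ IEL replicate 3 (0.55, adjusted p = 0.027).

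Of 34 tested homing and adhesion receptors, 20 were lower, 9 were higher and 3 differed by less than 2-fold. Thus 85.3% were called, beside 39.7% of all genes tested. S1pr1, which guides cells out of tissue, was at 1.02, 0.572 and 0 CPM in CD8αα from CD4 and at 78.8, 62.9 and 44.3 CPM in CD8αβ IEL (-6.84 ± 0.56, adjusted p = 8.79e-07). Ccr7, the lymph node homing receptor, had 2 reads against 334, a ratio of 154 with a 95% counting interval of 42.3 to 1278, and Itgal, the LFA-1 α chain, was at 16.2, 15.2 and 18.4 CPM against 1037, 387 and 873 CPM (-5.53 ± 0.38). Of the receptors that bring cells to the small intestine, Ccr9 was at 220, 321 and 277 CPM against 245, 369 and 289 CPM, and Itgb7 at 1374, 1610 and 1548 CPM against 1374, 1067 and 1238 CPM. The difference was within 2-fold in both, with intervals of -0.53 to 0.25 and 0.02 to 0.58, though Itgb7 was called higher without CD8αβ IEL replicate 1 (0.39, adjusted p = 0.0405) and with library totals alone (0.34, 0.0356). Itga4, the partner chain of Itgb7 in the gut-homing integrin, was lower, at 51.9, 44.2 and 55.5 CPM against 279, 194 and 274 CPM (-2.30 ± 0.20). Itgae (CD103), which binds epithelial E-cadherin, was higher, at 3814, 4517 and 3823 CPM against 2108, 1485 and 1654 CPM (1.21 ± 0.13). The myeloid and NK integrin chain Itgam (CD11b) was at 242, 225 and 256 CPM against 3.60, 1.58 and 2.80 CPM (6.53 ± 0.47), and Itgax (CD11c) at 887, 939 and 707 CPM against 193, 150 and 98.7 CPM (2.52 ± 0.25).

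**Figure D3:**
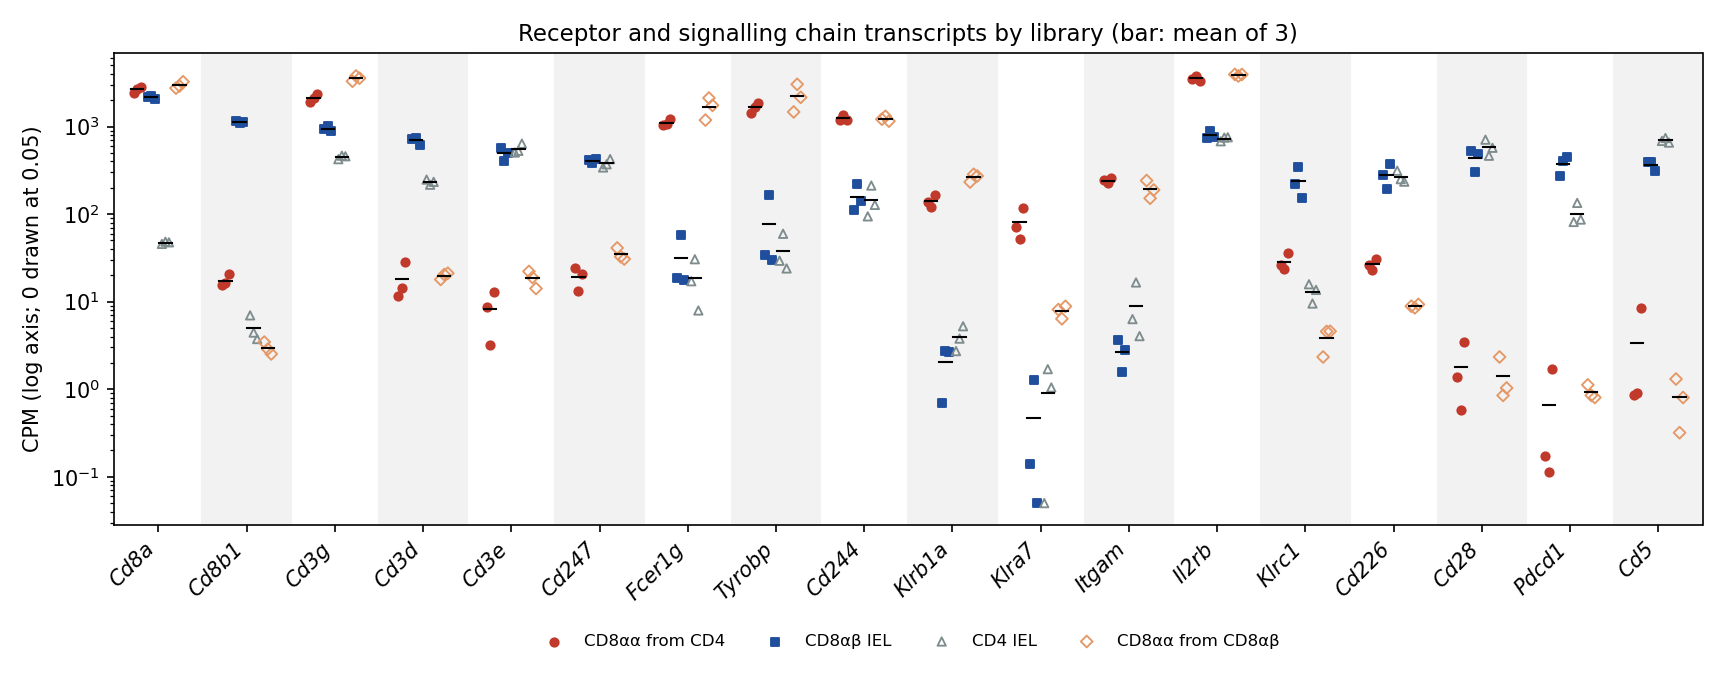
Level of receptor and signalling chain genes in CPM on a log axis in each library, with a bar at the mean of 3 libraries and a value of 0 drawn at 0.05; filled points are the compared groups and open points are CD4 IEL and CD8αα from CD8αβ. Cd3g, Fcer1g and Tyrobp lie higher and Cd3d and Cd3e lower in CD8αα from CD4 than in CD8αβ IEL.

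Of the 112 receptor calls, 107 held with the same direction without CD8αβ IEL replicate 1, and 84 held without the 2 Xist-holding libraries.

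Of 14 tested factors of the CD4 and CD8 fate decision, 3 were higher, 4 were lower and 6 differed by less than 2-fold. The called share was 50%, near the 39.7% of all genes tested. Runx3, which drives the CD8 programme, was at 556, 576 and 578 CPM in CD8αα from CD4 and at 337, 370 and 325 CPM in CD8αβ IEL (log2 difference 0.73 ± 0.14, adjusted p = 0.0013). Zbtb7b (ENSMUSG00000028042, chromosome 3, 89377644 to 89394776 in mm10), its helper-lineage counterpart, was also higher, at 18.8, 19.7 and 15.7 CPM against 3.60, 3.80 and 7.90 CPM (1.84 ± 0.31, adjusted p = 0.000378), and had a mean of 24.2 CPM in CD4 IEL and 14.2 CPM in CD8αα from CD8αβ. For neither gene did the compared libraries overlap. The Zbtb7b difference was not called without the Xist-holding libraries (log2 1.64, adjusted p = 0.0573). Bcl11b, the factor that fixes T cell identity, was at 15, 8.01 and 23.1 CPM against 255, 183 and 215 CPM (-3.84 ± 0.31), and the chromatin organiser Satb1 at 2.56, 5.72 and 4.52 CPM against 41.7, 22.6 and 41.3 CPM (-3.01 ± 0.33). Gata3, Ets1, Tox and Cbfb, the partner of the Runx proteins, differed by less than 2-fold, though Tox was called lower without CD8αβ IEL replicate 1 (-0.53, adjusted p = 0.0203).

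Of 20 tested factors of naive and memory T cells, 8 were lower, 3 were higher and 5 differed by less than 2-fold. The called share was 55%, beside 39.7% of all genes tested. Tcf7 (TCF-1), which sustains memory and stem-like T cells, was at 4.09, 0.114 and 2.81 CPM in CD8αα from CD4 and at 182, 83.2 and 162 CPM in CD8αβ IEL (-6.04 ± 0.55, adjusted p = 2.39e-06). Its relative Lef1 was at 3.24, 0.572 and 1.25 CPM against 51.3, 43.8 and 45.9 CPM (-4.87 ± 0.44). Tox2 had 2 reads against 614, a ratio of 283 with a counting interval of 78.1 to 2344. Ikzf2 (Helios), a factor of unconventional and regulatory T cells, was higher, at 136, 122 and 131 CPM against 17.0, 40.7 and 40.8 CPM (1.98 ± 0.30). Its relatives Ikzf1 and Ikzf3 had log2 differences of 0.17 and 0.05 and were bounded within 2-fold.

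Of 23 tested effector and residency factors, 8 were higher and 9 were lower (73.9% called, beside 39.7% of all genes tested). Over all genes tested, 19.2% were higher and 20.4% lower, so a near-even split was also that of the background. Zbtb16 (PLZF), the factor of NKT and innate-like lymphocytes, was at 26.8, 21.8 and 18.7 CPM in CD8αα from CD4 and at 0, 0.106 and 1.15 CPM in CD8αβ IEL (5.87 ± 0.78, adjusted p = 5.25e-05). Eomes (ENSMUSG00000032446, chromosome 9, 118478212 to 118486132 in mm10), the T-box factor of memory CD8 T and NK cells, had 3 reads in CD8αα from CD4 and stood at 56.8, 54.5 and 59.9 CPM in CD8αβ IEL, a ratio of 397 with a counting interval of 135 to 1927. Tbx21 (T-bet), the other T-box factor of killer cells, was present in both groups, at 315, 376 and 324 CPM against 521, 487 and 489 CPM (-0.56 ± 0.13, adjusted p = 0.00334). The Tbx21 difference was not called without the Xist-holding libraries (adjusted p = 0.101). Low Eomes reads thus stood beside a 1.48-fold lower level of Tbx21. Prdm1 (Blimp-1), which supports residency, was higher, at 332, 319 and 233 CPM against 158, 79.8 and 138 CPM (1.24 ± 0.23), though not called without the Xist-holding libraries (adjusted p = 0.105). Rora, at 7.85, 4.81 and 14.3 CPM against 371, 171 and 288 CPM, and Irf4, a factor induced by antigen receptor signals, at 11.8, 11.7 and 13.9 CPM against 252, 101 and 180 CPM, were lower.

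Immediate early genes, many of which follow recent antigen receptor signals, and NF-κB subunits formed a list in which 12 of 18 members were lower and 1 was higher. Of that list, 72.2% were called, beside 39.7% of all genes tested. Nr4a1 (Nur77) was at 272, 273 and 250 CPM in CD8αα from CD4 and at 3247, 2328 and 2838 CPM in CD8αβ IEL, which is 10.6-fold lower (-3.40 ± 0.14, adjusted p = 5.64e-09). Egr2 was at 17.1, 11.4 and 20.9 CPM against 112, 86.5 and 76.2 CPM (-2.48 ± 0.26). Junb and the NF-κB subunit Rela differed by less than 2-fold, while the AP-1 member Fosl2 was higher, at 187, 192 and 183 CPM against 104, 36.2 and 80.4 CPM (1.35 ± 0.34, adjusted p = 0.00636), though not called without the Xist-holding libraries (adjusted p = 0.0794) or with a term for them (0.0597). Among STAT and IRF factors, 7 of 11 were lower and 1 was higher (72.7% called, beside 39.7% of all genes tested). Irf7, an amplifier of the interferon response, was at 201 to 202 CPM in all CD8αα from CD4 libraries against 397, 645 and 1147 CPM (-1.86 ± 0.38), and Stat3 had a log2 difference of -0.01.

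**Figure D4:**
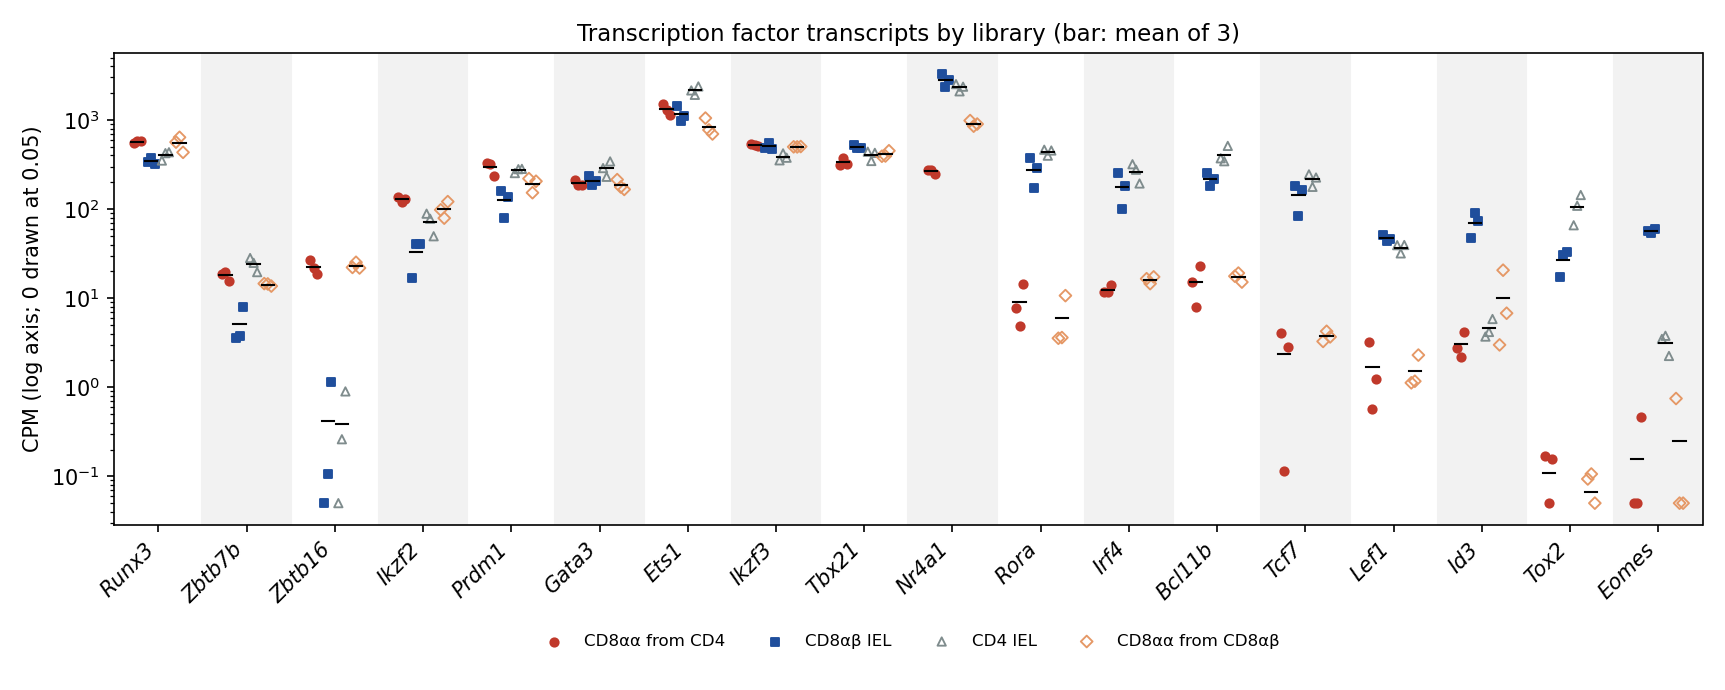
Level of transcription factor genes in CPM on a log axis in each library, with a bar at the mean of 3 libraries and a value of 0 drawn at 0.05; filled points are the compared groups and open points are CD4 IEL and CD8αα from CD8αβ. Eomes, Tcf7 and Nr4a1 lie lower and Runx3, Zbtb7b and Zbtb16 higher in CD8αα from CD4 than in CD8αβ IEL.

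Of the 55 transcription factor calls, 52 held with the same direction without CD8αβ IEL replicate 1. Without the 2 Xist-holding libraries, 26 held, and 27 factors were called in all.

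Downstream of the receptors, 16 of 33 antigen receptor signalling genes were lower, 10 were higher and 6 differed by less than 2-fold. That is 78.8% called, beside 39.7% of all genes tested. The T cell adaptor Lat was at 36.3, 43.4 and 56.0 CPM in CD8αα from CD4 and at 1200, 868 and 1184 CPM in CD8αβ IEL (-4.58 ± 0.23). Themis differed by -4.91 ± 0.22 (adjusted p = 1.05e-08), and Ubash3a, a phosphatase that limits T cell receptor signals, had 7 reads against 4802. Syk, Lat2 and Plcg2 were among the 10 higher genes. Syk, the kinase related to Zap70, was at 319, 323 and 301 CPM against 1.39, 17.6 and 3.78 CPM (5.30 ± 0.65, adjusted p = 2.85e-05). Lat2, a relative of Lat, was at 537, 580 and 550 CPM against 10.9, 27.0 and 16.5 CPM (4.92 ± 0.35), and Plcg2 at 616, 736 and 652 CPM against 22.4, 24.1 and 25.2 CPM (4.80 ± 0.24). The kinase Zap70 itself was within 2-fold, at 531, 538 and 538 CPM against 607, 601 and 633 CPM, and so were Fyn, Vav1 and Ptpn22. Lck, the coreceptor kinase, was slightly lower (-0.36 ± 0.11, adjusted p = 0.021), a call lost without CD8αα from CD4 replicate 3 (0.0679), CD8αβ IEL replicate 1 (0.0734) or the Xist-holding libraries (0.232).

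Over all genes, those with the largest rise among genes at 50 CPM or more were Myh7b, Dnm3, Avil, Htra3, Aoah and Klra7. Htra3, a secreted serine protease, was at 262, 360 and 297 CPM against 1.11, 1.79 and 3.13 CPM (7.28 ± 0.31), and Aoah, an enzyme that detoxifies lipopolysaccharide, at 126, 145 and 134 CPM against 1.11, 1.06 and 0.329 CPM (7.25 ± 0.49). Those with the largest fall were Atp8b4, S100a4, Ubash3a, Pdcd1, Kcnn4 and Eomes. S100a4, a calcium-binding protein of migrating memory cells, had 0 reads in CD8αα from CD4 and 52.6, 66.7 and 31.9 CPM in CD8αβ IEL, at least 371-fold lower, and Atp8b4 was at least 345-fold lower. Kcnn4, a potassium channel that supports T cell activation, was at 0.171, 0.801 and 0.156 CPM against 136, 194 and 151 CPM. The groups did not overlap in these named genes, but the genes were chosen for the largest differences in the same libraries. The lack of overlap is therefore no added support.

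Mean levels of a few named genes in the remaining groups are given beside these. Gzma had a mean of 3360 CPM in CD4 IEL and 44375 CPM in CD8αα from CD8αβ, and Fcer1g had means of 18.5 and 1682 CPM. For Cd3d the means were 233 and 19.8 CPM, for Eomes 3.17 and 0.249 CPM, and for Zbtb16 0.386 and 23.1 CPM. The CD8αα from CD4 means of the same genes were 41926 (Gzma), 1110 (Fcer1g), 18.0 (Cd3d), 0.156 (Eomes) and 22.4 CPM (Zbtb16), and these side by side levels are a description with no test. Across all genes, the correlation of CD8αα from CD4 libraries with CD8αα from CD8αβ libraries was 0.925 to 0.956, with CD4 IEL 0.810 to 0.845 and with CD8αβ IEL 0.780 to 0.823, given as a description of libraries that differ in sex-linked transcripts and depth.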

How the data were processed

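RNA-seq of sorted mouse IEL gave 12 libraries, 3 in each of 4 groups taken from the sample titles. The deposited table gives the authors' raw counts of reads for each gene as whole numbers. Alignment used HISAT2 2.1.0 and mm10, per the submitters' processing notes. What counted the reads, with which annotation, and how strand and multiple matches were handled is not given in the sources used here, so antisense, overlapping and near-identical genes are uncertain. Of 25965 rows, 66 repeated a symbol and were left out (0.0202% of reads), always keeping the row with the most reads. Of the 25899 remaining identifiers, 24986 were found in GENCODE M21, which gave the coordinates. Constant regions of the T cell receptor were not analysed here.

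All 12 libraries entered 1 edgeR model (edgeR 4.0.16, R 4.3.3) with a mean per group, TMM scaling and filterByExpr (minimum count 10, minimum total 15). The contrast was CD8αα from CD4 minus CD8αβ IEL, by the two-sided quasi-likelihood test with p-values adjusted by Benjamini-Hochberg across every tested gene. The code was tested on simulated data. Levels are CPM, which still contain gene length, so they are not compared between genes. A gene at 0 reads in a group gets a lower bound against 3 counts over the group, and 1 to 3 reads a ratio with an exact 95% interval for counting error only. Genes with an interval within 2-fold were described so, and the rest that were not called as undecided. Libraries of the same group differed by more than sampling noise, with a chi-square per gene of 11.4 to 60.2.

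The comparison, the gene lists and the marker lists were chosen with earlier results of these data known. Named were the coreceptors, Zbtb7b, Runx3, Themis and Xist. From each list came up to 3 called genes with the largest rise, 3 with the largest fall (10 CPM or more) and 2 abundant ones within 2-fold. Over all genes came the 6 largest rises and 6 largest falls (50 CPM or more). Other genes named, among them Prf1, Ifng, Gzmm, Ctsc, Cd28, Klrb1c, Klrc1, Klrd1, Klrk1, Cd244, Fcgr3, Itgae, Itgal, Il7r, Tbx21, Lat, Plcg2 and Lck, were chosen after their values were seen. Alternatives were library totals alone, DESeq2 size factors, the DESeq2 test (1.42.0), no filter, the 6 libraries alone, the replicate number as a block, leaving out each library, and 2 treatments of Xist-holding libraries. A combined alternative was added after seeing the data.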

Additional observations from a re-analysis of the deposited data

How the results depend on the processing

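Called genes numbered 5006 in the reported fit and 4358 to 5390 with library totals alone, DESeq2 size factors, the DESeq2 test, no filter or the 6 compared libraries alone. Leaving out each library in turn gave 1872 to 2280 genes higher and 2060 to 2428 lower, and 24 to 26 cytotoxic, 105 to 111 receptor and 46 to 54 transcription factor calls. Without CD8αβ IEL replicate 1, 4708 genes were called, of which 4300 were shared with the reported fit, all in the same direction. Without the 2 CD8αα from CD4 libraries that hold Xist, 777 genes were higher and 880 lower, and 27 transcription factor genes were called; a term for Xist-holding libraries gave 1604 higher and 1686 lower. Leaving out CD8αβ IEL replicate 1 as well, an alternative chosen after seeing the data, gave 753 higher, 887 lower and 26 transcription factor genes. The fits that leave libraries out hold fewer samples, and the cause of the fewer calls with the term was not tested. In the fit without the Xist-holding libraries, 1639 of 1657 called genes were also called in the reported fit, all in the same direction. Xist itself turned to -2.41, -2.34 (adjusted p = 0.32) and -2.39 in these 3 settings, which follows from leaving out or modelling its own signal. Of up to 400 genes checked in a setting, no other changed sign after being called. Genes listed only as cell type markers were not checked.

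With the replicate block, 2498 genes were higher and 2552 lower, and 4796 calls were shared with the reported fit. Same-numbered libraries of the compared groups correlated at r = 0.0321, 0.052 and -0.0149 in their deviations from the group means. CD8αα from CD4 replicates 1 and 2 correlated best with their own number, and replicate 3 did not. With 3 libraries in a group, these values cannot decide whether the numbers mark a pairing. Counts of 1 to 3 reads in a group, as for Eomes, Tox2 and Ccr7, set wide counting intervals, and genes under the filter were not tested.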

Other observations

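Proliferation transcripts were lower in CD8αα from CD4 in 34 of 35 cell cycle genes, and the other, E2f1, was undecided. Their median log2 difference was -2.63, beside 0.006 over all genes tested, of which 20.4% were lower. Ube2c, which helps to end mitosis, was at 3.24, 9.27 and 8.89 CPM in CD8αα from CD4 and at 86.9, 145 and 135 CPM in CD8αβ IEL (-4.08 ± 0.34, adjusted p = 9.70e-07). The mitotic kinase Plk1 was at 6.82, 9.96 and 6.08 CPM against 89.9, 140 and 135 CPM, and Mki67, a marker of cycling cells named after its values were seen, at 50.2, 37.6 and 50.8 CPM against 223, 213 and 222 CPM. The groups did not overlap in these 3 genes, but the genes were picked by their values, so this is no added support.

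Interferon-stimulated genes were lower in 25 of 29 and higher in none, beside 20.4% and 19.2% of all genes tested. Their summed level was 1697, 1918 and 1752 CPM in CD8αα from CD4 against 4064, 5797 and 10114 CPM in CD8αβ IEL. The CD8αβ IEL libraries differed widely among themselves. Ifit3, an antiviral protein, was at 4.78, 3.21 and 4.83 CPM against 154, 271 and 605 CPM (-6.34 ± 0.90, adjusted p = 9.93e-05), and Usp18, a brake on interferon signalling, at 1.54, 4.12 and 3.59 CPM against 60.7, 263 and 386 CPM. Gbp2 and Gbp4 differed by less than 2-fold, but were called lower when CD8αβ IEL replicate 2 was left out (adjusted p = 0.0301 and 0.0371).

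Of 21 tested sterol synthesis genes, 8 were higher, 1 was lower and 8 differed by less than 2-fold, so 42.9% were called beside 39.7% of all genes tested, a share near the background. Without the 2 Xist-holding libraries, 3 were higher and 0 lower, by edgeR's quasi-likelihood test. Hmgcs1, an early enzyme of the pathway, was at 774, 819 and 878 CPM against 257, 333 and 376 CPM (1.36 ± 0.17, adjusted p = 2.91e-05), and Lss, which forms lanosterol, at 231, 249 and 216 CPM against 67.6, 102 and 106 CPM (1.34 ± 0.17). The groups did not overlap in either gene, but both were picked for their large differences, so this is no added support.

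Of 17 tested cytokines and chemokines, 2 were higher and 6 were lower, so 47.1% were called beside 39.7% of all genes tested. That share was near the background. Ccl5, a chemokine stored by killer cells, was at 7978, 9360 and 10454 CPM against 3854, 6327 and 2677 CPM (1.11 ± 0.28, adjusted p = 0.00703). Xcl1, which draws cross-presenting dendritic cells, was at 1.54, 2.75 and 2.96 CPM against 71.3, 166 and 58.9 CPM (-5.33 ± 0.51), and Ccl1, with 0 reads in CD8αα from CD4, was at least 125-fold lower. Ccl3 and Il16 differed by less than 2-fold.

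Of markers of other cell types, the epithelial genes Epcam (95.4, 106 and 99.5 CPM against 13.9, 51.9 and 36.7 CPM) and Cdh1 (296, 296 and 232 CPM against 110, 74.1 and 72.7 CPM) were higher in CD8αα from CD4, while 15 of the 20 epithelial markers tested were undecided. Pecam1, from the fibroblast and endothelium list, was at 498, 589 and 530 CPM against 27.3, 28.9 and 19.6 CPM (4.41 ± 0.22). Markers of group 2 innate lymphoid cells summed to 195 to 227 CPM against 222 to 270 CPM, those of group 3 to 115 to 155 CPM against 104 to 160 CPM, and those of plasma cells to 228 to 258 CPM against 325 to 400 CPM. B cell markers summed to 51.2 to 66.4 CPM against 17.4 to 40.9 CPM, most of it Cd79b. Markers of mast cells and granulocytes, erythroid cells and γδ T cells summed to at most 25.2 CPM in any of the 6 libraries. The part of these markers in the differences was not tested.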
